A study of Mus musculus with 6 samples.

Results

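The 10 genes described here mark the endothelial cells that line blood vessels, and several of them take part when vessels grow into cartilage. They were *Pecam1*, *Cdh5*, *Kdr*, *Flt1*, *Tek*, *Tie1*, *Emcn*, *Eng*, *Vwf* and *Egfl7*, chosen by symbol as known endothelial genes and found among the 47729 genes of the deposited table by their Ensembl identifiers. All 10 were found, and all 10 passed the filter on low reads. RNA came from the proximal tibial epiphysis, which held articular cartilage, the secondary ossification centre, the growth plate and the metaphysis together, of 3 Control mice, labelled Control (ICR), and 3 LS1 mice, labelled Longshanks 1. All were 14 days old and from generation F13, with the 2 epiphyses of a mouse pooled into 1 library. LS1 was selectively bred for tibiae that are long for the body mass, and Control was bred at random from the same CD-1 background. The mice of a line came from different families, and the labels give no treatment, transgene or sex for either group.

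Endothelial cells are joined to one another by PECAM1 and VE-cadherin, and they read growth signals through the VEGF receptors and the angiopoietin receptors. Growth plate cartilage has no vessels of its own. Capillaries of the metaphysis invade its hypertrophic zone from below, and the vessels nearest to the cartilage are known for high PECAM1 and endomucin.

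The labels name the tissue as bone, cartilage and marrow, and endothelial markers were present in it. Each of the 10 genes had reads in every library, and so did the 20 further endothelial genes of a second list. The normalized counts of the tight junction gene *Cldn5* were 836, 698 and 1116 in Control and 625, 869 and 1242 in LS1. Those of the adhesion gene *Esam* were 2065, 2324 and 2932 in Control and 1739.8, 2329.6 and 2989 in LS1, and the groups of both overlapped. A normalized count is the read count of a gene divided by 1 size factor for its library, and values are given in the order of replicates 1 to 3 throughout. The same libraries held cartilage, bone and marrow RNA, so fewer endothelial cells and less RNA per endothelial cell cannot be told apart.

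The libraries held 68803249 to 76581954 reads in Control and 82227711 to 88745366 in LS1. LS1 replicate 1 stood apart by base composition. Across the 19236 tested genes with a transcript in the annotation, its log2 level relative to the mean of all libraries fell with transcript GC content. Pearson's r was -0.49 across genes, which are not independent replicates, while r ran from -0.03 to 0.25 in the other 5 libraries. Each library is part of that mean, so the values of r depend on one another. The median deviation in LS1 replicate 1 was 0.30 in the fifth of genes with the lowest GC content and -0.32 in the fifth with the highest. LS1 replicate 3 stood apart on the first principal component, which held 35.1% of the variance, with a score of -4.29 against 43.7 and 50.1 in the other LS1 libraries and -41.5 to -22.1 in Control. Values without these libraries are given beside results that they moved. For each gene list, the range of its median with 1 library left out in turn is given in brackets.

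No endothelial gene differed between LS1 and Control past the threshold. With limma on log2(normalized count + 1) and Benjamini-Hochberg adjustment over all 19308 genes tested, 0 of 10 fell under an adjusted p of 0.05, where 14 of all genes tested (0.0725%) did. On the recovered reads, 0 of 10 were called by edgeR (0.0363% of all genes) and 0 of 10 by DESeq2 (2.36% of all genes). An unadjusted limma p-value under 0.05 was reached by *Tek*, which was higher in LS1 (7.08% of all genes were higher at that threshold), and by *Vwf*, which was lower (5.86% of all genes). These were also the genes whose groups did not overlap, 1 with all LS1 libraries above all Control libraries (10.3% of all genes) and 1 with all below (8.94% of all genes). Between groups the log2 fold change was above 0 for 6 of 10, against 50.7% of all genes, and its median was 0.08, against 0.005 over all genes tested. Without LS1 replicate 3 that median was -0.02 with 6 of 10 genes lower, and without Control replicate 3 it was 0.15. The number of the 10 genes with an unadjusted p-value under 0.05 ran from 1, without LS1 replicate 3 or Control replicate 2, to 3, without LS1 replicate 1. The shares over all genes given here are also the reference for the counts in the gene lists below.

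**Figure D1:**
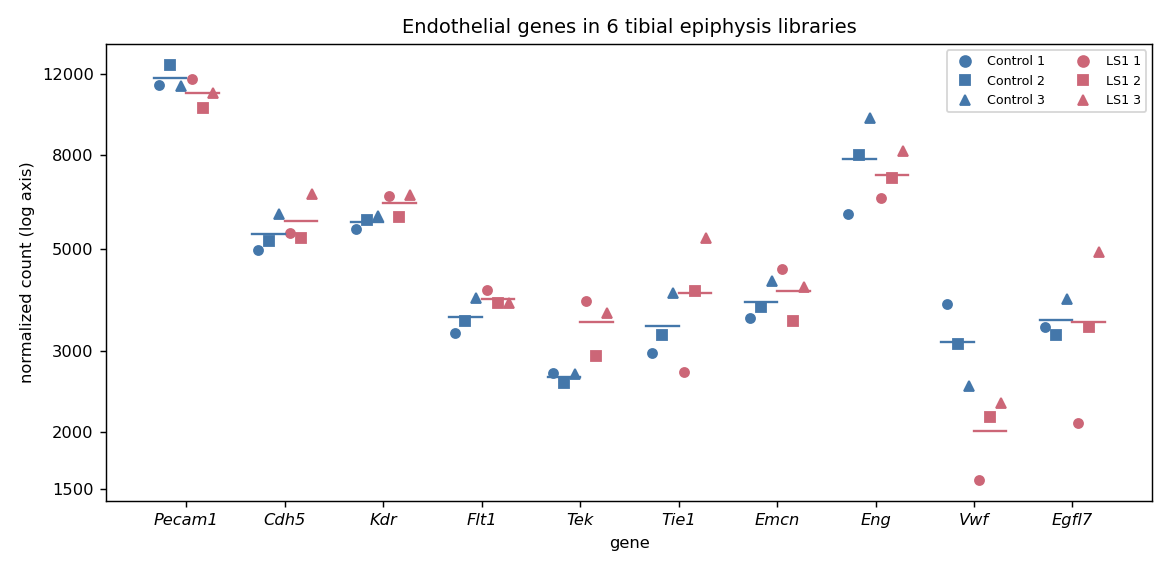
Normalized counts (log axis) of the 10 endothelial genes in the 3 Control libraries (blue) and the 3 LS1 libraries (red), 1 symbol per mouse, with short lines at the group means. The groups do not overlap for *Tek*, at 2554 to 2682 in Control against 2921 to 3847 in LS1, and for *Vwf*, at 2514 to 3791 against 1569 to 2310.

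The upstream sequences of 4 receptor genes are shown, picked with their values known. *Tek* and *Kdr* had the highest correlation over the libraries of any pair among the 10 genes. They hold no AGGAAG on either strand there, while *Flt1* and *Eng* hold it. *Kdr* and *Tek* also correlated with *Flt1*, with Pearson's r of 0.77 and 0.65, and with *Eng* r was 0.14 and -0.23. Whether AGGAAG goes with the correlation was not tested. AGGAAG is one of the words that ETS factors bind, and ETS factors such as ERG and FLI1 are known regulators of endothelial genes. Their shorter core GGAA was not searched, so a sequence with no capitals can still hold it. The lines give the 250 bases before the RefSeq transcription start (GRCm38.p6), 5′ to 3′ on the strand of the gene, with each AGGAAG or its reverse complement CTTCCT in capitals. *Tek* is at chr4:94739039-94739288 (+), *Kdr* at chr5:75978456-75978705 (-), *Flt1* at chr5:147726012-147726261 (-) and *Eng* at chr2:32646345-32646594 (+).
Tek: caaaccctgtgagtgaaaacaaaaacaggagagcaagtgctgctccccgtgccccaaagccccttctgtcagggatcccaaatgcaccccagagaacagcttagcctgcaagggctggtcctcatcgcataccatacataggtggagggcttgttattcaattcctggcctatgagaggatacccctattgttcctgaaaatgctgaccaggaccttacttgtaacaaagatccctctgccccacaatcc
Kdr: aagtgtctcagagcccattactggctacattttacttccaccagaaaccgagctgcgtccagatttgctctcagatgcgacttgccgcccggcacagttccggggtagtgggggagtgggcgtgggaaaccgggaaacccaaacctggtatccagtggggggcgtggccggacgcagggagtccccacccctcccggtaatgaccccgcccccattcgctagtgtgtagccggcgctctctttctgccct
Flt1: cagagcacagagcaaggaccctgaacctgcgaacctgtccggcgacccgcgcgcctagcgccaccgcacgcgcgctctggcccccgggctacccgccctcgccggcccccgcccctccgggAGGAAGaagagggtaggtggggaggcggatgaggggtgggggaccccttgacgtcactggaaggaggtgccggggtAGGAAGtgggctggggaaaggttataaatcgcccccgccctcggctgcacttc
Eng: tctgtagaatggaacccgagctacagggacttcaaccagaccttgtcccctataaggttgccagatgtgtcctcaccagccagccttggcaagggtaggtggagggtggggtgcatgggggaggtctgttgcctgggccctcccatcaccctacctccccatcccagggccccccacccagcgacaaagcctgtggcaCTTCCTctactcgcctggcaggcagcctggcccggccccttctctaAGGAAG

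Windows of 300 bases (250 before and 50 after a start) were in the RefSeq table for 7 of the 10 genes, 9 windows in all, with 3 of them for *Egfl7*. AGGAAG, on either strand, was in 6 of 9 windows (66.7%) and in 35.4% of the 32851 windows of all genes. *Tek* and *Kdr* held no match and *Flt1* and *Eng* held 2 each. AGATAA, a word that GATA factors bind, was in 1 of 9 windows, that of *Tek*, and in 11.2% of all windows. The forkhead word TAAACA and the SOX word ACAATG were in 0 of 9 windows, against 13.4% and 12.6% of all windows. These matches describe letters in a window and show no binding.

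The junction genes were close in the groups. *Pecam1* (ENSMUSG00000020717, chromosome 11, 106654217 to 106750628, - strand) encodes the adhesion molecule CD31. Positions are on GRCm38 here and for the genes that follow. Its normalized counts were 11397, 12588 and 11329 in Control and 11741, 10126 and 10908 in LS1. The groups overlapped, with Control replicate 2 the highest and LS1 replicate 2 the lowest, and the log2 fold change was -0.11 (SE 0.12, limma adjusted p = 0.744), with a 95% interval of the fold from 0.768 to 1.12. *Cdh5* (ENSMUSG00000031871, chromosome 8, 104101625 to 104144511, + strand) encodes VE-cadherin, the cadherin of endothelial junctions. The libraries gave 4979, 5214 and 5957 in Control and 5407, 5271 and 6591 in LS1. LS1 replicate 3 was the highest and the other LS1 libraries lay inside the Control range, and the log2 fold change was 0.09 (SE 0.14, limma adjusted p = 0.816) with a fold between 0.862 and 1.32. Without LS1 replicate 3 it was -0.01.

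The VEGF receptors varied little from mouse to mouse, and their groups overlapped. *Kdr* (ENSMUSG00000062960, chromosome 5, 75932827 to 75978458, - strand) encodes VEGFR2, the main signalling receptor for VEGF-A. Its normalized counts were 5516, 5776 and 5889 in Control and 6516, 5858 and 6552 in LS1. The coefficient of variation was 3.34% in Control and 6.20% in LS1. LS1 replicate 2 lay inside the Control range and the other LS1 libraries above it, with a log2 fold change of 0.14 (SE 0.12, limma adjusted p = 0.662) and a fold between 0.914 and 1.32. *Flt1* (ENSMUSG00000029648, chromosome 5, 147561604 to 147726011, - strand) encodes VEGFR1, which binds VEGF-A tightly and, in its soluble form, acts as a decoy. The libraries gave 3282, 3479 and 3903 in Control and 4062, 3804 and 3807 in LS1. The coefficient of variation was 8.93% in Control and 3.81% in LS1. Control replicate 3 reached into the LS1 range, and the log2 fold change was 0.13 (SE 0.13, limma adjusted p = 0.696), with a fold between 0.899 and 1.34. The table gives 1 value per gene, so the soluble and the membrane forms of *Flt1* are counted together.

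The log2 ratio of *Kdr* to *Flt1*, which does not depend on the scaling of the libraries, was 0.69 ± 0.09 in Control and 0.70 ± 0.08 in LS1 (SD, n = 3 each). The difference was 0.005 (p = 1, two-sided exact permutation test), the smallest of the differences of the 6 log2 ratios compared. With 3 mice against 3 this test cannot go below 0.1.

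Of the angiopoietin receptors, *Tek* was higher in each LS1 mouse than in any Control mouse, without passing the threshold, and *Tie1* overlapped. *Tek* (ENSMUSG00000006386, chromosome 4, 94739289 to 94874976, + strand) encodes TIE2, the receptor that binds the angiopoietins. Its normalized counts were 2682, 2554 and 2665 in Control and 3847, 2921 and 3617 in LS1. The lowest LS1 library lay above the highest Control library, and the Control libraries lay close together with a coefficient of variation of 2.63%, against 13.9% in LS1. LS1 against Control gave a log2 fold change of 0.38 (SE 0.14, limma adjusted p = 0.311, unadjusted p = 0.0220), a fold of 1.31 with a 95% interval from 1.05 to 1.63. It was 0.30 without LS1 replicate 1, 0.35 without LS1 replicate 3 and 0.34 with an offset for GC content, all higher in LS1. Over the 20 alternatives the adjusted p ran from 0.176 to 0.623.

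*Tie1* (ENSMUSG00000033191, chromosome 4, 118471191 to 118490061, - strand) encodes the co-receptor of TIE2, which has no established angiopoietin ligand of its own. The libraries gave 2965, 3243 and 4005 in Control and 2692, 4047 and 5268 in LS1. LS1 held both the lowest and the highest value, with replicate 1 below and replicate 3 above all Control libraries. The fitted log2 fold change was 0.19 (SE 0.22, limma adjusted p = 0.752), 0.45 without LS1 replicate 1 and -0.03 without LS1 replicate 3. The log2 ratio of *Tek* to *Tie1* was -0.36 ± 0.22 in Control and -0.17 ± 0.59 in LS1 (SD, n = 3 each), and in LS1 it ran from -0.54 in replicate 3 to 0.51 in replicate 1. The difference of 0.19 (p = 0.8, two-sided exact permutation test) became -0.15 without LS1 replicate 1.

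*Emcn* (ENSMUSG00000054690, chromosome 3, 137341067 to 137432185, + strand) encodes endomucin, a sialomucin of the endothelial surface in veins, capillaries and metaphyseal vessels. Its normalized counts were 3534, 3732 and 4249 in Control and 4525, 3483 and 4129 in LS1. LS1 replicate 1 was the highest and LS1 replicate 2 the lowest, and the log2 fold change was 0.07 (SE 0.15, limma adjusted p = 0.870) with a fold between 0.842 and 1.31. It was -0.01 without LS1 replicate 1 and -0.10 with the GC offset. The log2 ratio of *Emcn* to *Pecam1*, which pairs the markers named for metaphyseal vessels, was -1.62 ± 0.18 in Control and -1.44 ± 0.09 in LS1 (SD, n = 3 each). The difference was 0.18 (p = 0.2, two-sided exact permutation test; adjusted p = 0.4 over 6 ratios by permutation).

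*Eng* (ENSMUSG00000026814, chromosome 2, 32646595 to 32682669, + strand) encodes endoglin, a co-receptor for BMP9, BMP10 and TGF-β that shapes vessel calibre. The libraries gave 5959, 7996 and 9642 in Control and 6445, 7146 and 8159.7 in LS1. Control held both the lowest value, in replicate 1, and the highest, in replicate 3, so its spread enclosed LS1. The log2 fold change was -0.10 (SE 0.18, limma adjusted p = 0.855) with a fold between 0.714 and 1.23. An exon of *Eng* overlaps *Fpgs* on the opposite strand, and it is not given in the sources used here whether strand was used in counting, so the reads of that stretch cannot be assigned with certainty.

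*Egfl7* (ENSMUSG00000026921, chromosome 2, 26580014 to 26593120, + strand) encodes a secreted protein of endothelial cells that takes part in vessel tube formation, and it hosts the microRNA gene *Mir126a*. Its normalized counts were 3388, 3246 and 3892 in Control and 2092, 3385 and 4922 in LS1. The Control libraries lay within a narrow range, while in LS1 the highest library held 2.35 times the lowest, the widest spread of the 10 genes in either group. Between groups the log2 fold change was -0.10 (SE 0.26, limma adjusted p = 0.906), with a fold between 0.619 and 1.41. It was 0.22 without LS1 replicate 1 and -0.39 without LS1 replicate 3, so its direction rested on 1 library. Exons of *Egfl7* overlap *Agpat2* and *Mir126b* on the opposite strand and *Gm20532* and *Mir126a* on the same strand, which leaves its value uncertain.

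The spread of *Tie1*, *Egfl7*, *Vwf* and *Eng* among the LS1 libraries moved with base composition. These were the 4 genes with the highest transcript GC content, from 56.5% for *Vwf* to 57.6% for *Tie1*, and *Emcn* had the lowest, 40.7%. In LS1 replicate 1 the log2 level relative to the mean of all libraries followed GC content over the 10 genes with r = -0.82. In LS1 replicates 2 and 3 r was 0.38 and 0.35. LS1 replicate 1 is part of that mean, so the positive values depend in part on it. Relative to the Control mean, these 4 genes lay on both sides of 0 in LS1 replicates 2 and 3. There *Tie1* was at 0.26 and 0.64, and *Vwf* at -0.52 and -0.42. The log2 difference of LS1 replicate 1 from LS1 replicate 3 was -1.23 for *Egfl7*, -0.97 for *Tie1*, -0.56 for *Vwf* and -0.34 for *Eng*, and it lay between -0.29 and 0.13 for the 6 others. With an offset for GC content in each library, the SD of the log2 values in LS1 went from 0.62 to 0.42 for *Egfl7*, from 0.49 to 0.27 for *Tie1*, from 0.30 to 0.09 for *Vwf* and from 0.17 to 0.12 for *Eng*. It went up for *Pecam1* (0.11 to 0.14), *Kdr* (0.09 to 0.10) and *Flt1* (0.05 to 0.09), and down for the 3 others. In Control the offset brought the SD of *Vwf* from 0.30 to 0.36, that of *Emcn* from 0.14 to 0.23 and that of *Tek* from 0.04 to 0.05. The Control SD went down for all the others, among them *Tie1* (0.22 to 0.15), *Eng* (0.35 to 0.28) and *Egfl7* (0.14 to 0.09). The offset was fitted to these same libraries. In LS1 replicate 1 it raises genes of high GC content, so a smaller LS1 SD for such genes follows in part from the fit. The part of base composition in these differences between mice was not tested.

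**Figure D2:**
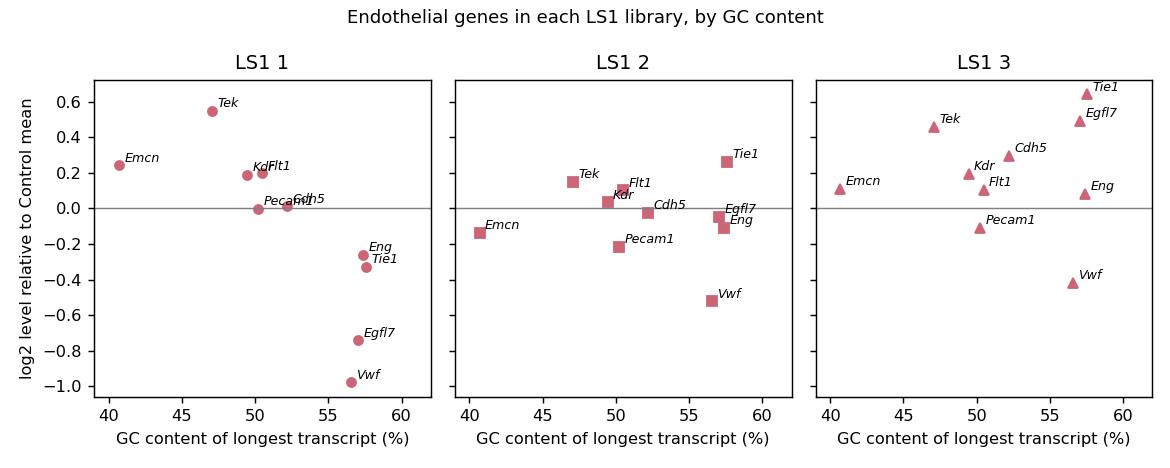
Log2 level of each of the 10 endothelial genes relative to the Control mean (vertical axis) against the GC content of its longest transcript in percent (horizontal axis), with 1 panel for each LS1 library and 1 point per gene. In LS1 replicate 1 *Tek*, at 47.1% GC, is highest at 0.55 and *Emcn*, at 40.7%, lies at 0.24, and the 4 genes above 56% GC all lie below 0, down to -0.98 for *Vwf*, while in the other LS1 libraries the high-GC genes lie on both sides of 0.

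*Vwf* had the largest difference among the 10 genes. *Vwf* (ENSMUSG00000001930, chromosome 6, 125546774 to 125686679, + strand) encodes von Willebrand factor, a clotting protein that endothelial cells store and that megakaryocytes and platelets also make. Its normalized counts were 3791, 3101 and 2514 in Control and 1569, 2153 and 2310.4 in LS1. The highest LS1 library lay below the lowest Control library, by a narrow margin between Control replicate 3 and LS1 replicate 3. LS1 against Control gave a log2 fold change of -0.64 (SE 0.19, limma adjusted p = 0.250, unadjusted p = 0.00700), a fold of 0.642 with a 95% interval from 0.477 to 0.863. It was -0.47 without LS1 replicate 1, -0.75 without LS1 replicate 3 and -0.55 with the GC offset, all lower in LS1. Over the 20 alternatives the adjusted p ran from 0.0603, with DESeq2, to 0.532.

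Relative to the junction gene *Cdh5*, *Vwf* was at a log2 ratio of -0.80 ± 0.43 in Control and -1.53 ± 0.25 in LS1 (SD, n = 3 each). The groups did not overlap, and the difference of -0.73 had p = 0.1, the smallest this two-sided exact permutation test can give (adjusted p = 0.4 over the 6 ratios). It ran from -0.96 to -0.53 with each library left out in turn.

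Markers of megakaryocytes and platelets moved with *Vwf*. All 11 of 11 listed markers were lower in LS1, 5 of them (*Itga2b*, *Gp1ba*, *Gp1bb*, *Gp6* and *Treml1*) with an unadjusted p-value under 0.05 and 0 with a limma adjusted p-value under 0.05, and their median log2 fold change was -0.59 [-0.77 to -0.29]. The list summed to normalized counts of 59915 to 77380 in the Control mice and 34270 to 60770 in the LS1 mice, and none of the markers was at 0 in any library. *Itga2b*, which encodes the platelet integrin chain CD41, had 7383, 8011 and 5499 in Control and 2571, 5091 and 5323 in LS1, and *Gp9*, a subunit of the platelet receptor for von Willebrand factor, had 807, 611 and 670.3 in Control and 229, 559 and 745 in LS1. The log2 level of *Vwf* relative to the Control mean was 0.29, 0.00 and -0.30 in Control and -0.98, -0.52 and -0.42 in LS1, and the median of the megakaryocyte list was 0.23, -0.02 and -0.20 in Control and -1.11, -0.42 and -0.15 in LS1. The libraries stood in the same order in both, except that Control replicate 3 and LS1 replicate 3 changed places. Without LS1 replicate 1 the median of the list was -0.29, with 11 of 11 markers lower, and with the GC offset it was -0.50. With 1 library left out, the number of these markers with an unadjusted limma p-value under 0.05 varied. It ran from 1, without Control replicate 1, to 8, without LS1 replicate 3.

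The list of erythroid genes was also lower in LS1, 10 of 10, with a median log2 fold change of -0.53 [-0.71 to -0.23]. An unadjusted limma p-value under 0.05 was reached by 4 (*Klf1*, *Hemgn*, *Ank1* and *Ermap*). The summed count was 413651 to 515609 in the Control mice and 275078 to 453115 in the LS1 mice. Relative to the Control mean, the median of the list was 0.23, 0.01 and -0.24 in Control and -0.94, -0.17 and -0.36 in LS1. LS1 replicate 2 lay above Control replicate 3 there, and below it for *Vwf*. Without LS1 replicate 1 the erythroid median was -0.23, with 9 of 10 lower. *Klf1*, the master regulator of red cell genes, had 4997, 4367 and 5271 in Control and 1956, 3344 and 3752 in LS1. Of the 20 other endothelial genes, 9 were higher and 11 lower in LS1, 1 had an unadjusted p-value under 0.05 (*Adgrl4*, an adhesion receptor of endothelial cells, with a log2 fold change of 0.45), and their median log2 fold change was -0.04 [-0.10 to 0.06]. The part of megakaryocyte RNA in the value of *Vwf* was not tested.

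**Figure D3:**
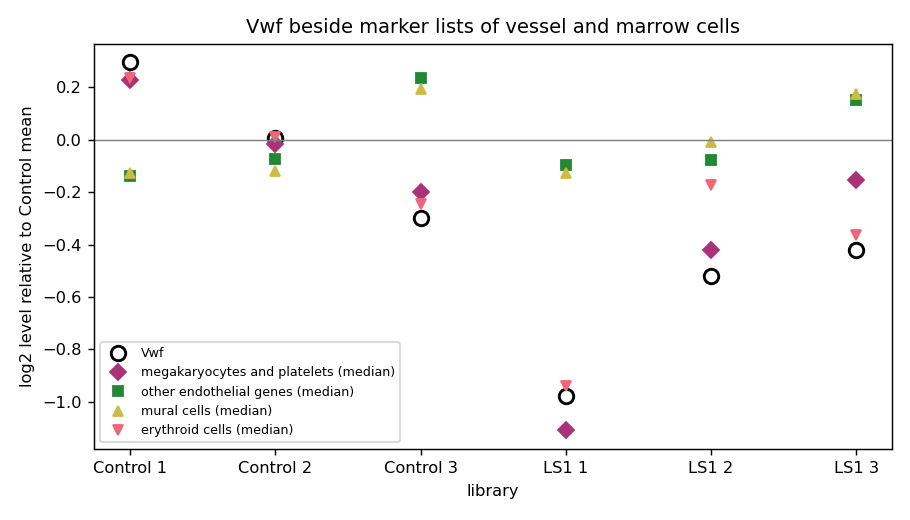
Log2 level relative to the Control mean (vertical axis) of *Vwf* (open circles) and the median over the markers of megakaryocytes and platelets (diamonds), other endothelial cells (squares), mural cells (upward triangles) and erythroid cells (downward triangles) in each of the 6 libraries (horizontal axis). *Vwf* and the megakaryocyte median are lowest in LS1 replicate 1, at -0.98 and -1.11, where the endothelial and mural medians are -0.10 and -0.13.

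Per length, the 10 genes spanned a wide range of levels. *Eng* and *Pecam1* stood highest, at 1867 and 1822 normalized counts per kilobase of exon over the 6 libraries, in the 88.7th and 88.4th percentiles of the tested genes. *Cdh5* followed at 1325, *Egfl7* at 974, *Tie1* at 753, *Emcn* at 729, *Kdr* at 666 and *Tek* at 647 per kilobase. *Flt1*, at 276, and *Vwf*, at 160, were the lowest, and *Vwf* lay in the 39.3rd percentile. Neighbours in this order overlapped over the 6 libraries, except that *Pecam1* lay above *Cdh5*, *Tek* above *Flt1* and *Flt1* above *Vwf* in every library pair. When length was that of the longest transcript, 7 of the 10 genes changed place and *Pecam1* came first at 3298 per kilobase, while *Tek*, *Flt1* and *Vwf* kept the last places.

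**Figure D4:**
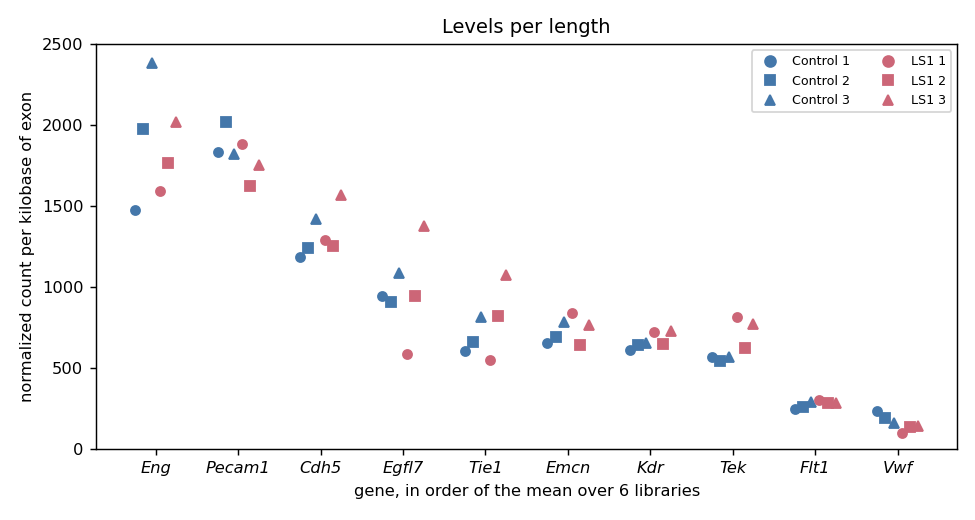
Normalized count per kilobase of exon (vertical axis) of each endothelial gene in the 3 Control libraries (blue) and 3 LS1 libraries (red), with the genes in order of the mean over the 6 libraries. The mean falls from 1867 for *Eng* to 160 for *Vwf*.

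The 10 genes did not rise and fall as 1 block over the libraries. Over the 45 pairs, Pearson's r across the 6 libraries had a median of 0.23 and ran from -0.93, for *Flt1* and *Vwf*, to 0.92, for *Kdr* and *Tek*, and 26 pairs were above 0. *Tie1* and *Egfl7* followed each other with r = 0.87. With 6 libraries that share depth and base composition these values are descriptions. LS1 replicate 3 held the highest value of 4 genes and Control replicate 1 the lowest of 4, and LS1 replicate 1 held the highest of 3 and the lowest of 3. Averaged over the 10 genes, the log2 level relative to the Control mean was -0.07, -0.01 and 0.09 in Control and -0.11, -0.05 and 0.18 in LS1.

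Among the 10, *Cdh5* followed their standardised mean most closely (r = 0.97 over 6 libraries), while *Pecam1* and *Vwf* did not (r = -0.03 and -0.39). Each of the 10 is part of that mean, which raises its own r. Of 14770 genes at a mean of 100 reads or more, the 5 outside the 10 with the highest r were *Kctd1* (0.98), *1500002C15Rik* (0.98), *Prkag2* (0.97), *Sh3bp5* (0.97) and *Ebna1bp2* (0.96). They were picked as the highest of that many values over only 6 libraries, so their r is a description and shows no link to vessels. The median r was 0.53 over the 20 other endothelial genes, 0.49 over 11 mural genes and -0.19 over 11 megakaryocyte genes, against 0.01 over all genes compared. It was also 0.47 over the neutrophil list, 0.35 over osteoblasts and osteocytes and 0.33 over B cells, so a positive median was not particular to vessel cells. It was 0.11 over chondrocytes, -0.04 over macrophages, -0.40 over interferon-stimulated genes and -0.48 over erythroid cells.

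The ligands and co-receptors of these receptors were read from the same fit. Of 11 listed genes, 11 were tested, 7 were higher and 4 lower in LS1, 0 had an adjusted p-value under 0.05 and 1 an unadjusted one, and the median log2 fold change was 0.02 [-0.02 to 0.22]. The median was 0.22 without LS1 replicate 1 and below 0 without Control replicate 1 or 2. *Vegfa*, the main VEGF ligand and a product of hypertrophic chondrocytes, had 6719.8, 7588 and 9429 in Control and 7910.3, 14016 and 8398 in LS1, with LS1 replicate 2 far above the rest. Its log2 fold change was 0.32 (SE 0.22, limma adjusted p = 0.560). The log2 ratio of *Vegfa* to *Flt1* differed by 0.18 (p = 0.8, two-sided exact permutation test), which was -0.09 without LS1 replicate 2.

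*Nrp1*, a co-receptor for VEGF-A beside VEGFR2, had 6554, 6341 and 6453 in Control and 12634, 8023 and 7237 in LS1. The groups did not overlap, with LS1 the higher, and LS1 replicate 1 stood far above the other 2. The fitted log2 fold change was 0.48 (SE 0.19, limma adjusted p = 0.319, unadjusted p = 0.0255), 0.24 without LS1 replicate 1 and 0.33 with the GC offset. The transcript has a GC content of 41.9%. *Nrp1* is not confined to endothelial cells.

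*Angpt1*, the activating ligand of TIE2, had 4708, 3809 and 4118 in Control and 5086, 4499 and 6271 in LS1, with a log2 fold change of 0.32 (limma adjusted p = 0.413, unadjusted p = 0.0628), and 0.14 with the GC offset. *Angpt2*, the ligand of TIE2 that endothelial cells release, had 1617, 1752 and 2313 in Control and 1575, 1481 and 2725 in LS1, with a log2 fold change of -0.01. The log2 ratio of *Angpt1* to *Angpt2* was 1.16 ± 0.36 in Control and 1.50 ± 0.26 in LS1 (SD, n = 3 each), a difference of 0.33 (p = 0.2, two-sided exact permutation test; adjusted p = 0.4 over 6 ratios by permutation). The groups of both ligands overlapped. The remaining log2 fold changes were -0.03 for *Angpt4*, -0.24 for *Vegfb*, 0.14 for *Vegfc*, 0.58 for *Vegfd*, -0.16 for *Pgf*, which encodes placental growth factor, 0.02 for the lymphatic VEGF receptor *Flt4* and 0.02 for *Nrp2*. *Vegfd* was low, between 21.0 and 66.1 normalized counts.

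**Figure D5:**
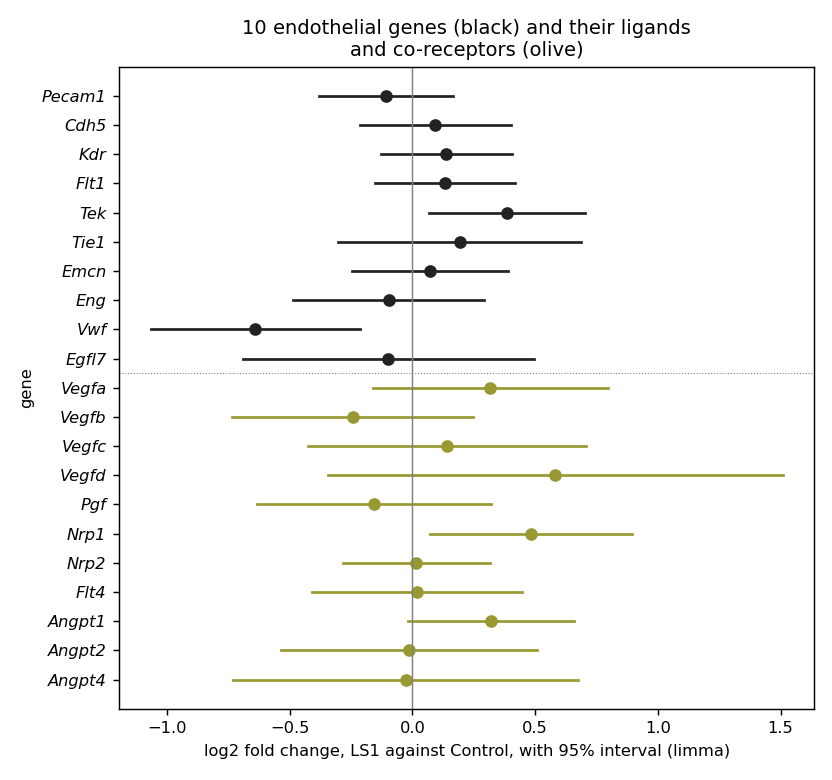
Log2 fold change of LS1 against Control (horizontal axis) with its 95% interval from limma for the 10 endothelial genes (black) and 11 ligands and co-receptors (olive). The interval lies on 1 side of 0 for *Tek*, *Vwf* and *Nrp1*, each before adjustment for the number of genes tested.

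Few of the regulators around the vessel genes had an unadjusted limma p-value under 0.05. Of 20 endothelial transcription factors 19 were tested (*Etv2* was not), with 0 adjusted p-values under 0.05 and 3 unadjusted ones (*Tal1*, *Mef2c* and *Klf2*) from limma, and a median log2 fold change of 0.06 [0.03 to 0.10]. The ETS factors *Erg*, *Fli1* and *Ets1* had log2 fold changes of 0.06, -0.09 and 0.01. *Tal1*, a factor of blood and endothelial progenitors that erythroid cells and megakaryocytes also use, had 22176, 18549 and 15238 in Control and 8789, 14109 and 12051 in LS1, and the groups did not overlap, with LS1 the lower and a log2 fold change of -0.69 (limma adjusted p = 0.229, unadjusted p = 0.00398; -0.50 without LS1 replicate 1). From DESeq2 its adjusted p was 0.0410. *Mef2c*, which hypertrophic chondrocytes and muscle also use, had 13627, 13351 and 11079 in Control and 20436, 14777 and 15231 in LS1, and its log2 fold change of 0.40 (limma adjusted p = 0.326) was 0.25 without LS1 replicate 1.

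For the endoglin pathway, 9 of 11 genes were tested (the ligands *Gdf2* and *Bmp10* were not), with 7 higher, 0 adjusted and 1 unadjusted p-value under 0.05 from limma, and a median of 0.17 [0.06 to 0.20]. Without LS1 replicate 3 the endoglin list had 4 of 9 genes lower and the lowest of these medians. In this list 3 of 9 genes had all LS1 libraries above all Control libraries (10.3% of all genes). Another 1 had all LS1 libraries below (8.94% of all genes). *Bmpr2*, the type II receptor that signals with endoglin, had 5319, 4626 and 4621 in Control and 8639.8, 5570.4 and 5555 in LS1, and its log2 fold change of 0.41 (limma adjusted p = 0.360) was 0.20 without LS1 replicate 1, which stood above the other LS1 libraries. The 11 Notch pathway genes, which sort tip from stalk cells, had a median of -0.05 [-0.12 to 0.12], with 5 higher and 6 lower and no unadjusted p-value under 0.05. The Notch median was above 0 without LS1 replicate 1 or Control replicate 3. *Dll4*, the Notch ligand of tip cells, had a log2 fold change of 0.10. The 7 tip cell and metaphyseal vessel genes had a median of 0.03 [-0.05 to 0.09] and no unadjusted p-value under 0.05, with 0.24 for the vessel growth peptide *Apln* and 0.24 for the tip cell gene *Esm1*.

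Genes that open or bar the way into cartilage were described in the same manner. The 7 proteases of vessel invasion had a median log2 fold change of 0.07 [-0.001 to 0.19], with 0 adjusted p-values and 1 unadjusted p-value under 0.05 from limma. *Plau*, the urokinase plasminogen activator, had 1293, 1626 and 2065 in Control and 2188, 2989 and 2534 in LS1, with all LS1 libraries above all Control libraries and a log2 fold change of 0.64 (SE 0.19, limma adjusted p = 0.249). *Mmp9* and *Mmp13*, the gelatinase and the collagenase of the cartilage front, had log2 fold changes of 0.07 and -0.37, with groups that overlapped.

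Of 10 angiogenesis inhibitors 8 were higher in LS1, against 50.7% of all genes tested. An unadjusted limma p-value under 0.05 was reached by 5 of those higher (*Tnmd*, *Cnmd*, *Thbs1*, *Thbs2* and *Timp3*), where 7.08% of all genes were higher at that threshold. A limma adjusted p-value under 0.05 was reached by 0, and the median log2 fold change was 0.29 [0.27 to 0.31]. The count by direction was less steady than this median. Leaving out LS1 replicate 3 put 4 of 10 inhibitors lower in LS1, and so did leaving out either Control replicate 2 or 1. With LS1 replicate 1 left out 1 was lower, and with Control replicate 3 left out 0 were. *Tnmd*, which encodes the antiangiogenic tendon protein tenomodulin, had 2104, 1527 and 1141 in Control and 3447, 5383 and 2580.0 in LS1, with groups that did not overlap and a log2 fold change of 1.24 (SE 0.29, limma adjusted p = 0.198, 0.00104 from DESeq2). Its cartilage relative *Cnmd*, which encodes chondromodulin and was named after its values were seen, had 34311, 30285 and 36581 in Control and 49345, 47181 and 52041 in LS1 and a log2 fold change of 0.56 (limma adjusted p = 0.177, 0.0160 from DESeq2). The chondrocyte list moved with these genes. All 12 of its 12 genes were higher in LS1, 8 with an unadjusted p-value under 0.05. DESeq2 called 6 of them (2.36% of all genes). The median was 0.54 [0.46 to 0.59], and the summed count was 2608824 to 2981380 in the Control mice and 3491514 to 3963405 in the LS1 mice. The part of cartilage content in the inhibitors was not tested.

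The 9 genes of the vessel basement membrane, which cartilage and bone cells also express in part, were all higher in LS1, 3 (*Nid1*, *Nid2* and *Lama4*) with an unadjusted and 0 with a limma adjusted p-value under 0.05, with a median of 0.22 [0.16 to 0.30]. Without LS1 replicate 3 or Control replicate 2 there were 2 of 9 lower. *Nid1*, which encodes the laminin and collagen IV linker nidogen, had 6402, 6623 and 7019 in Control and 11299, 8849 and 8140.1 in LS1, with groups that did not overlap and a log2 fold change of 0.48 (limma adjusted p = 0.248; 0.35 without LS1 replicate 1). The collagen IV genes *Col4a1* and *Col4a2* had log2 fold changes of 0.22 and 0.02, and their exons overlap each other on opposite strands.

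Markers of the cells beside the endothelium lay on both sides of 0. The 11 mural cell genes, of the pericytes and smooth muscle cells around vessels, had a median log2 fold change of 0.03 [-0.02 to 0.17], with 6 higher and 5 lower and no unadjusted p-value under 0.05. *Pdgfrb*, the PDGF receptor of pericytes, had 7238, 8805 and 10735 in Control and 6718, 6439 and 7750.2 in LS1, and *Rgs5*, a pericyte gene, had 9484, 9486 and 15023 in Control and 11009.9, 9285 and 12475 in LS1. Of 8 sinusoidal and lymphatic endothelial genes 7 were tested (*Ccl21a* was not), with a median of 0.01 [-0.05 to 0.13] and no unadjusted p-value under 0.05. *Stab2*, a scavenger receptor of sinusoids, had 1960.5, 2315 and 1753 in Control and 1682, 1776 and 2237 in LS1. Its relative *Stab1* had 3673, 3783 and 4504 in Control and 3787, 4361 and 5524 in LS1, and the groups of both overlapped.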

How the data were processed

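Polyadenylated RNA from the pooled proximal tibial epiphyses of each of 6 mice was sequenced on a SOLiD 5500xl instrument with paired-end reads. Per the labels and methods, the authors used HISAT2 2.0.2 for alignment to GRCm38, featureCounts 1.4.6 for counting over Ensembl genes, and DESeq2. The deposited values are a signal per gene: the authors scaled the read counts of each library by its own size factor. Whether the counting used strand is not given in the sources used here. The table held 47729 genes and no filter on low values.

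Division by the smallest step between values of a library gave back whole reads for 100% of values (tolerance 0.001). In Control replicate 1 that step was 1.01, which a rounded table could also give, so edgeR was also run on the 5 other libraries. Totals ran from 68803249 to 88745366 reads. Replicates of a group differed by more than read sampling (chi-square over its degrees of freedom 43.0 to 164), and all were kept.

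The 19308 genes with 20 or more recovered reads on average were tested on log2(value + 1) with limma 3.58.1 in R 4.3.3, with trend and robust moderation, and Benjamini-Hochberg adjustment at 0.05. The group was the only term. Alternatives (20) were edgeR 4.0.16, DESeq2 1.42.0, limma-voom, other scalings, filters and pseudocounts, a replicate block, each library left out and, chosen after seeing the data, edgeR on 5 libraries and loess offsets (span 0.3) for GC content or length. Scripts were tested on simulated data. Ratios were compared by exact permutation.

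Symbols and coordinates came from GENCODE M21 (98.9% of identifiers matched) and upstream sequences from RefSeq, both on GRCm38. The table used held no upstream window for *Pecam1*, *Cdh5* and *Vwf*. Named genes were the 10 members, all ligands and co-receptors, the largest unadjusted increase and decrease of each other pathway list, the first 2 markers of each cell type list (some are not reported here) and the 5 genes most like the members. *Erg*, *Fli1*, *Ets1*, *Dll4*, *Apln*, *Esm1*, *Mmp9*, *Mmp13*, *Col4a1* and *Col4a2* were added for their roles, and the remaining genes for an unadjusted p under 0.05, after their values were seen. The members and lists were chosen with earlier results of these data known.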

Additional observations from a re-analysis of the deposited data

How the results depend on the processing

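Under the 20 alternatives 0 of the 10 endothelial genes passed the threshold, and 194 of 200 of their values kept their direction. A change of read filter or of moderation and the replicate block leave a log2 fold change as it was. Values from those settings could not change direction, and they are counted in the 200. Against 14 genes past the threshold over all genes, the count was 7 with edgeR, 456 with DESeq2, 45 with no filter on reads, 9 with a mean of at least 100 reads, 3 without trend or robust moderation, 8 with the length offset and 5 with edgeR on the 5 libraries other than Control replicate 1. It ran from 5 to 324 with 1 library left out, with 324 without LS1 replicate 3, 46 without LS1 replicate 1, 9 without Control replicate 1 and 5 without Control replicate 2. The cause was not tested. The number of endothelial genes whose groups did not overlap ran from 2 to 5 with 1 library left out, where fewer libraries have to be apart (5 without Control replicate 3 and 4 without LS1 replicate 1). The log2 fold change of *Emcn* turned to -0.096 with the GC offset. With 1 library left out it ran from -0.013 to 0.18 for *Emcn*, -0.28 to 0.064 for *Eng*, -0.39 to 0.22 for *Egfl7*, -0.0079 to 0.17 for *Cdh5* and -0.033 to 0.45 for *Tie1*, each reaching both sides of 0. The other 5 genes kept their direction there. The median of the 10 ran from -0.02 to 0.15 there. The replicate numbers follow the order of the samples, and titles in both groups share a letter in that order, whose meaning the labels do not give. The deviations of same-numbered libraries correlated at 0.05, 0.02 and 0.22, and Control replicates 1 and 2 each correlated better with an LS1 library of another number, so the mice were treated as unpaired, and whether a number marks a shared origin is not settled. A replicate block gave 12 genes past the threshold and 0 of the 10. The depth gave each of the 10 genes over 1000 reads in every library, so the spread between mice, and not read sampling, set the width of the intervals.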

Other observations

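The marrow and interferon lists beside the vessel genes also differed in their balance, with 0 adjusted p-values under 0.05 from limma in any of them. DESeq2 called 3 macrophage genes (*Mpeg1*, *Aif1* and *Cybb*), 1 B cell gene, 1 interferon-stimulated gene (*Ifit2*) and 1 osteoblast gene (*Bglap*). In brackets is the range of each median with 1 library left out in turn. All 12 macrophage genes were higher in LS1, 5 (*Fcgr1*, *Mpeg1*, *C1qb*, *Aif1* and *Cybb*) with an unadjusted p-value under 0.05, with a median log2 fold change of 0.53 [0.26 to 0.73]. The macrophage median was 0.26 without LS1 replicate 2 and 0.73 without LS1 replicate 3, where 8 had an unadjusted p-value under 0.05. *Adgre1*, the F4/80 antigen, had 1629, 1623 and 1565 in Control and 4876, 3316 and 1431 in LS1 normalized counts, high in LS1 replicates 1 and 2 only, while *Csf1r*, the macrophage growth factor receptor, had 11733, 13055 and 17925 in Control and 12091, 15948 and 17058 in LS1. Of 9 B cell genes 8 were lower in LS1, 5 with an unadjusted p-value under 0.05, with a median of -0.40 [-0.58 to -0.20], which was -0.20 without LS1 replicate 2. *Pax5*, the B lineage factor, had 4582, 4543 and 4878 in Control and 4329, 2297 and 3795 in LS1, with groups that did not overlap. Of 8 neutrophil genes 6 were higher, 2 (*Elane* and *Ltf*) with an unadjusted p-value under 0.05, with a median of 0.23 [0.07 to 0.36], which was 0.07 without LS1 replicate 3. *S100a8* had 79037, 55301 and 85459 in Control and 103823, 78411 and 88187 in LS1. Its partner *S100a9*, which encodes the other chain of calprotectin, had 59214, 46795 and 68264 in Control and 55077, 55620.0 and 67561 in LS1, and the groups of both overlapped.

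Of 12 chondrocyte genes, *Col2a1*, the main cartilage collagen, had 1344212, 1590021 and 1508984 in Control and 1472058, 2086285 and 1723317 in LS1, with groups that overlapped, and *Acan*, the main proteoglycan, had 165204, 197066 and 171179.6 in Control and 245071, 275139 and 233019.9 in LS1, with all LS1 libraries above all Control libraries. The 8 osteoblast and osteocyte genes had a median of 0.13 [0.05 to 0.16], 1 (*Bglap*) with an unadjusted p-value under 0.05, in the lower direction. *Col1a1*, the bone collagen, had 2016431, 2032518 and 2495226 in Control and 1995102, 1778579 and 1953114 in LS1 and *Sp7*, the osteoblast factor, 15279, 17751 and 16244 in Control and 18783, 15579 and 16805 in LS1. All 9 interferon-stimulated genes were higher in LS1, with a median of 1.42 [0.91 to 2.06], and 1 had an unadjusted p-value under 0.05. Without LS1 replicate 3 all 9 had one, with a median of 2.06, and without LS1 replicate 2 it was 0.91 and 2 had one, while without LS1 replicate 1 it was 1.51 and 0 of 9 had one. The 1 gene with all libraries in was *Ifit2*, at 739, 1348 and 534 in Control and 2264, 2335 and 1235 in LS1, where LS1 replicate 3 lay inside the Control range.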
